A study of Mus musculus with 13 samples.

Results

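Wnt ligands, their receptors and their secreted antagonists were taken by name from the deposited tables: Wnt, frizzled (Fzd), Sfrp, Frzb, Dkk, Rspo, Lgr4 to Lgr6, Lrp5 and Lrp6, Axin and Wif1. The rule found 52 genes among the 32285 rows of the section table and 27 of the same genes among the 15114 rows of the neuron table. By role these were 19 ligands, 10 frizzled receptors and 1 antisense transcript of a frizzled gene (Fzd10os), 2 co-receptors, 11 secreted antagonists, 7 R-spondins or R-spondin receptors and 2 Axins. The other 25 members were measured in the sections only.

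The neurons came from the retrosplenial cortex of untreated wild-type B6 mice, dissected from acute slices and pooled over slices. There were 765 cells in 11 samples from 3 animals. Each cell was named as from an anterior, medium or posterior dissection, and the dissections did not coincide with the samples. The sections were 2 cryosections of wild-type brain, 10 µm thick, run on Visium arrays, whose spots take up RNA from several cells or parts of cells at once; they held 1973 spots and are called S4 and S8 after the column names. Age and sex are not in the labels used here, and the labels name the strain for the neurons alone.

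Wnt proteins are secreted lipid-modified ligands that bind frizzled receptors together with the co-receptors Lrp5 or Lrp6. In the best-known branch of the pathway this stops the Axin complex from marking beta-catenin for destruction, and beta-catenin then acts with TCF/LEF factors on target genes, of which Axin2 is one. Some Dkk proteins act on the co-receptors, Sfrp, Frzb and Wif1 bind the ligands, and R-spondins bound to Lgr receptors keep frizzled receptors on the cell surface. In the brain the pathway is known from cortical patterning, vessel growth and synapse formation.

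Total counts ran from 2306470 to 15974543 per neuron sample, with medians of 54532 to 210873.5 per cell, and animal 1 was the shallowest of the 3 animals (median 65843 per cell, against 132797 and 185995). The sections held 8436518 and 6389042 counts, and 162 spot barcodes occurred in both. Levels are given as CPM, counts scaled to a fixed total of the summed cells or spots; they are not corrected for transcript length, so levels are compared for the same gene only. For the labelled cell type, all 4 excitatory markers were in the neuron table, with a summed level of 325 to 337 CPM per animal. In the sections, a separate assay, they summed to 927 and 979 CPM, so this level alone does not show the cell type. In the neurons, interneuron and mural cell markers summed to 35.8 to 90.6 and 2.83 to 41.0 CPM. Astrocyte and oligodendrocyte markers summed to 84.4 to 127 and 131 to 242 CPM. The markers of microglia and of endothelial cells had no row in the neuron table (0 of 5 each). The superficial layer neuron markers Cux2 and Lamp5 had none either, so a missing row does not show that a cell type was absent.

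Neurons were put into 12 clusters without using the members or a list of 77 other Wnt pathway names, and clusters 1 to 9, with at least 10 cells in at least 2 animals, were tested. Clusters 3 and 7 were layer 5 extratelencephalic-like, cluster 4 layer 6 intratelencephalic-like and cluster 5 layer 6 corticothalamic-like by their markers. The rest are called by number and leading genes: cluster 1 by Calb1, Ddit4l and Evc2, cluster 2 by Thsd7a, Pygm, Hsd11b1 and Eps8l2, cluster 6 by Ptprm, Aldh1l1 and Inhbb, cluster 8 by Penk, Calb1 and Agmat, and cluster 9 by Calb1, Ddit4l and Cxcl14. All 76 cells of cluster 3 came from posterior dissections and 2 of them from animal 3, and cluster 9 was shallow (median 75634 counts per cell). Spots were grouped in the same way into 10 zones, of which zones 1 to 9 were tested; zone 10 held 33 spots, all in section S4.

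The promoters of 5 members that were called together in the comparisons below are shown here as the 250 bases before the gene start, 5′ to 3′ on the gene's strand, from RefSeq (GRCm38.p6). Frzb (chr2:80447397-80447646, minus strand) and Fzd1 (chr5:4758217-4758466, minus strand) were both higher in cluster 1, and Rspo1 (chr4:124986180-124986429, plus strand), Dkkl1 (chr7:45211884-45212133, minus strand) and Wnt9a (chr11:59306680-59306929, plus strand) were all higher in cluster 2 of the neurons and in zone 7 of the sections. Capitals mark the core of the TCF/LEF site, CTTTGA or its reverse complement TCAAAG.
Frzb: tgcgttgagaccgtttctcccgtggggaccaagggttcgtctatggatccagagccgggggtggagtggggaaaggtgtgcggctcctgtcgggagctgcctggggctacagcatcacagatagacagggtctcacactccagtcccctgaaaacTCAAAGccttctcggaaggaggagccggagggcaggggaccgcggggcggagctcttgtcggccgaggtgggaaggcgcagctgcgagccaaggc
Fzd1: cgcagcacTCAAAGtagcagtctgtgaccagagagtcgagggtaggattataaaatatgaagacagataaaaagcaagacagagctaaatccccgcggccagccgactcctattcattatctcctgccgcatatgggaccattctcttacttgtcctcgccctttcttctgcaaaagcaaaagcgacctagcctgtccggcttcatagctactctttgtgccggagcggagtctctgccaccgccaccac
Rspo1: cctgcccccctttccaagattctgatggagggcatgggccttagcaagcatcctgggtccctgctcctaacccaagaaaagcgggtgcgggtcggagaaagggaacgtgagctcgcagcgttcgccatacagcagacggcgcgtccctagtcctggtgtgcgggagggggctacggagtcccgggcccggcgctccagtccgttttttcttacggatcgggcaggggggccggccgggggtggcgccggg
Dkkl1: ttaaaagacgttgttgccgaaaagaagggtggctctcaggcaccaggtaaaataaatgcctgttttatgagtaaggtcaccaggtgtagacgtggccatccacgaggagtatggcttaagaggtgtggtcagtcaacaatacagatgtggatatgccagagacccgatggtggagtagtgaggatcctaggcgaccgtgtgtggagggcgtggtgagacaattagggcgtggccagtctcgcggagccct
Wnt9a: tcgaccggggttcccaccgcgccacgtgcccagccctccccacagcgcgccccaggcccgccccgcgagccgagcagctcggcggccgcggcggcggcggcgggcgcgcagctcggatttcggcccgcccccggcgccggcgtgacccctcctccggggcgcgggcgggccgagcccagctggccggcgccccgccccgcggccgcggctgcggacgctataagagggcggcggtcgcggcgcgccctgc
The Frzb and Fzd1 windows each held 1 match, starting 95 and 242 bases before the gene start, and these letters were not in the other 3 windows. RefSeq promoters were matched for 33 of the 52 members, and 5 of the 33 (Dkk1, Frzb, Fzd1, Wnt11 and Wnt5b; 15.2%) held the core, against 15.8% of 27025 genes. The GC box GGGCGG, searched on both strands, was in 24 of the 33 members (72.7%) and in 35.4% of all genes. It was in the windows of Frzb and Wnt9a, and in none of those of Fzd1, Rspo1 and Dkkl1. The GC content of the 5 windows ran from 51.2% in Fzd1 to 84.4% in Wnt9a.

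Cells and spots both held few counts of many members and many counts of a few, which is not corrected for transcript length. In the neurons, 18 of the 27 members had counts in all 11 samples, and a cell held counts of 0 to 13 members (median 6). In the sections 42 of 52 members had counts in both sections and 6 had none: Dkk1, Dkk4, Wnt1, Wnt3a, Wnt8a and Wnt8b. A count of 0 allows up to 3 counts per section, and Wnt1 had 79 counts in the neurons.

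Between the 9 clusters, 12 of the 27 members passed in 1 cluster or more (edgeR quasi-likelihood test on sums per animal and cluster, each cluster against the mean of the log levels of the others; Benjamini-Hochberg adjusted p under 0.05 and a log2 fold change of at least 1). Of all 13403 genes tested, 18% were called. All 27 members passed the filter on low counts. The called members were 5 ligands, 1 frizzled receptor, 3 antagonists and 3 R-spondins. The co-receptor Lrp6, both Lgr receptors and both Axins were not among them. Where a cluster held 3 or fewer counts of a gene, the fitted fold change depends on the settings and only levels and adjusted p are given.

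**Figure D1:**
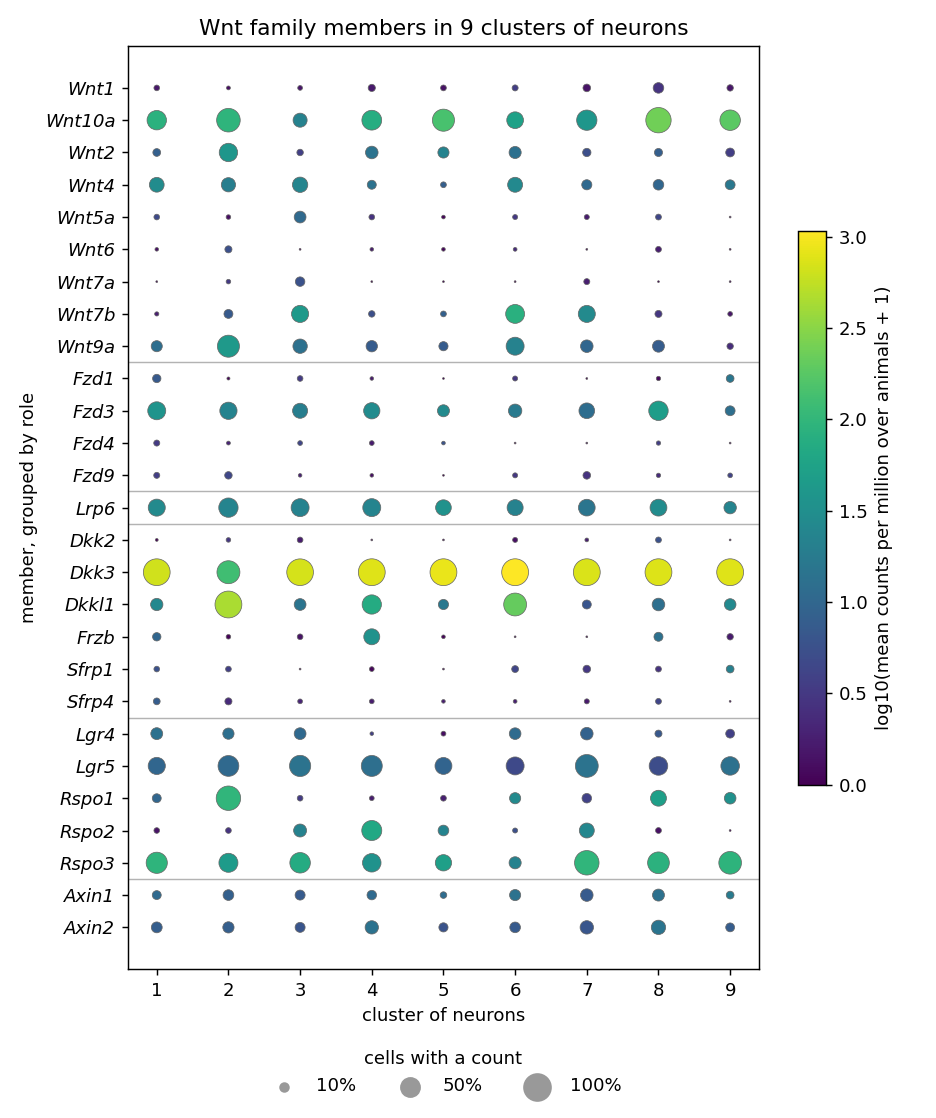
The 27 members measured in neurons (rows, by role: ligands, frizzled receptors, co-receptor, antagonists, R-spondins and Lgr receptors, Axins) in the 9 tested clusters (columns). Colour is the mean level over animals as log10(CPM + 1) and dot size is the percentage of cells with a count; Dkk3 is high in each column but the second, where Dkkl1 and Rspo1 are at their highest.

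Among the ligands, Wnt10a stood at 78.4 CPM ± 16.3 (SD, n = 3 animals) in neurons, and 424 of the 765 cells held a count (55.4%). In cluster 8 it reached 277 and 193 CPM in animals 2 and 3. In cluster 3 it was at 32.6 and 8.37 CPM in animals 1 and 2, and in cluster 7 at 56.8, 20.4 and 36.3 CPM in animals 1 to 3. Wnt10a was thus higher in cluster 8 (log2 fold change 1.80 ± 0.36, SE; adjusted p = 0.00625, higher in 2 of 2 animals) and lower in the layer 5 extratelencephalic-like clusters 3 (-2.24 ± 0.53, adjusted p = 0.0187, lower in 2 of 2 animals) and 7 (-1.32 ± 0.40, adjusted p = 0.0487, lower in 3 of 3 animals). The ranges of clusters 8 and 9 overlapped, since cluster 9 was at 122 and 233 CPM. Without animal 2 none of the 3 calls passed: the log2 fold change was 1.19 in cluster 8 (adjusted p = 0.411), -1.28 in cluster 3 (0.562) and -0.95 in cluster 7 (0.301). Without animal 3 it was 2.17 in cluster 8 (adjusted p = 0.0676) and -1.27 in cluster 7 (0.248). Clusters 3, 6, 8 and 9 had sums from 2 animals, so leaving out 1 of these leaves a lone sum, which the fit assumes to vary like the sums of the other clusters; this holds for each such value below.

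Wnt7b, a ligand known from vessel growth in the brain, had its highest level in cluster 6, with 94.2 and 73.6 CPM in animals 2 and 3 and counts in 51.4% of its cells. It followed in cluster 3 with 22.9 and 61.2 CPM and in cluster 7 with 16.6, 21.0 and 42.2 CPM. In clusters 1 and 9 it stood at 2.28 CPM or lower in each animal. Wnt7b was higher in cluster 6 (adjusted p = 0.00159) and in cluster 7 (adjusted p = 0.0234), and cluster 3 was not called. The value in cluster 6 lay above that of every other sum of an animal and tested cluster (at most 61.2 CPM). Without animal 2 the adjusted p was 0.0682 in cluster 6 and 0.0629 in cluster 7, and without animal 3 it was 0.27 in cluster 7.

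Wnt9a, Wnt2 and Wnt6 were all higher in cluster 2. Wnt9a stood there at 31.6, 51.2 and 41.1 CPM in animals 1 to 3, against 0.777 to 21.5 CPM in the sums of the other clusters, with no overlap (log2 fold change 2.50 ± 0.40, adjusted p = 0.000216, higher in 3 of 3 animals). Wnt2 was at 41.0, 30.9 and 43.6 CPM in cluster 2 and at up to 37.2 CPM elsewhere, in cluster 5, so the groups overlapped (2.53 ± 0.71, adjusted p = 0.0236); without animal 3 the adjusted p was 0.219. Wnt6 was a rare transcript with counts in 15 cells in all. Of its 150 counts in tested clusters 123 fell in cluster 2, at 3.42, 2.44 and 7.83 CPM (adjusted p = 0.0207). These came from 1, 3 and 4 cells of animals 1 to 3, and no other tested sum held more than 9 counts. Wnt6 passed the filter on low counts through cluster 2, so its call there is not independent of the filter. Its call was lost without animal 1 (adjusted p = 0.058), and without animal 3 it did not pass the filter on low counts.

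The other ligands of the neuron table did not pass in any cluster. Wnt4 was in 22.4% of cells at 18.01 CPM ± 1.59 (SD, n = 3 animals). Wnt5a, Wnt7a and Wnt1 stood at 2.06, 0.932 and 0.694 CPM on average.

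Among the frizzled receptors of the neuron table, Fzd3, known from axon guidance, had counts in the most cells. Fzd3 had 22.4 CPM ± 5.54 (SD, n = 3 animals), counts in 34.1% of cells and no call in any cluster (lowest adjusted p = 0.145). Fzd1 was found in 25 cells. It stood at 2.28, 11.97 and 3.90 CPM in cluster 1 and at 16.2 and 12.4 CPM in cluster 9, both led by Calb1 and Ddit4l. In cluster 1 it had counts in 14 of 150 cells, 1 of them in animal 1. In cluster 9 it had counts in 2 cells of animal 2 and 1 cell of animal 3, so these levels rest on few cells. Cluster 8, with Calb1 and Ddit4l among its leading genes too, was at 0 and 0.341 CPM, and clusters 5 and 7 held none. Fzd1 was called higher in cluster 1 (adjusted p = 0.0197) and in cluster 9 (adjusted p = 0.0097). The first call was lost on leaving out any 1 animal (adjusted p = 0.0751 to 0.228) and the second without animal 2 (0.106) or animal 3 (0.0917). Fzd4 and Fzd9 were under 2 CPM on average and not called.

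Lrp6, the co-receptor for Wnt and the target of some Dkk proteins, was even between animals, at 23.4, 21.0 and 23.2 CPM, and 40.4% of cells held a count. Its cluster means overlapped widely, and the lowest adjusted p of any cluster was 0.204.

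The members grouped as antagonists by name gave the clearest pattern, though their action on the pathway was not measured. Dkk3, a divergent member of the Dkk family, had counts in 94.0% of the cells. In cluster 2 it stood at 108, 159 and 110 CPM in animals 1 to 3. In the sums of the other 8 tested clusters it ran from 597 to 1104 CPM. The groups did not overlap, and Dkk3 was lower in cluster 2 by a log2 fold change of -2.61 ± 0.14 (SE; adjusted p = 3.03e-10, lower in 3 of 3 animals). The share of cells with a count was 73.0% in cluster 2. Dkk3 was also low in clusters 11 and 12, of 11 cells each, which entered no test. Cluster 11 stood at 22.1 and 60.0 CPM in animals 1 and 2, with counts in 54.5% of cells. Cluster 12 stood at 20.4, 0 and 226 CPM in animals 1 to 3, with counts in 45.5% of cells.

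Dkkl1, a secreted relative of Dkk3 known from the testis, did the reverse. It stood at 464, 419 and 439 CPM in cluster 2, where 100% of cells held a count, and at 236 and 181 CPM in cluster 6. The other tested clusters held at most 104 CPM in any animal. Dkkl1 was higher in cluster 2 (log2 fold change 4.20 ± 0.37, adjusted p = 1.49e-07, higher in 3 of 3 animals) and in cluster 6 (3.22 ± 0.45, adjusted p = 0.000313, higher in 2 of 2), and lower in cluster 7, at 6.86, 0.170 and 8.83 CPM (-2.94 ± 0.65, adjusted p = 0.00759, lower in 3 of 3). The call in cluster 7 was lost without animal 1 (adjusted p = 0.0627). In cluster 2 the interneuron marker Pvalb was also among the leading genes, while Gad1 and Gad2 stood at 0.344 and 0.129 CPM. Oligodendrocyte markers summed there to 72.8 to 224 CPM, within the range of the other clusters (29.6 to 1034 CPM), and 2 of 5 were among the markers raised there. Among the 2 measured erythroid markers, 1 was raised, and their sum, 5.22 to 6.41 CPM, lay above that of every other tested cluster (at most 3.89 CPM). Other clusters stood further out. Oligodendrocyte markers summed to 126 to 1034 CPM in cluster 7, against at most 598 CPM in the other tested clusters. Astrocyte markers summed to 565 to 968 CPM in cluster 9 (at most 332 CPM in the others). Mural cell markers summed to 0.815 to 758 CPM in cluster 5 (at most 5.61 CPM in the others). The part of these markers' cell types in the members' levels was not tested in any cluster.

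Frzb, which binds Wnt ligands through a frizzled-like domain, was confined to few cells (58 of 765). In cluster 4, layer 6 intratelencephalic-like, it was at 11.4, 40.4 and 51.3 CPM and 35.1% of cells held a count. In cluster 1 it was at 6.07, 9.78 and 10.7 CPM, and in cluster 8 at 14.6 and 9.38 CPM. The values of cluster 8 came from 1 cell of animal 2 and 4 cells of animal 3. No other tested cluster was above 0.797 CPM in any animal. Frzb was higher in cluster 4 (adjusted p = 1.39e-06), cluster 1 (adjusted p = 0.00018) and cluster 8 (adjusted p = 0.000712); the last was lost without animal 2 (adjusted p = 0.118). Sfrp1, Sfrp4 and Dkk2 averaged 2.35, 1.85 and 0.958 CPM and were not called.

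**Figure D2:**
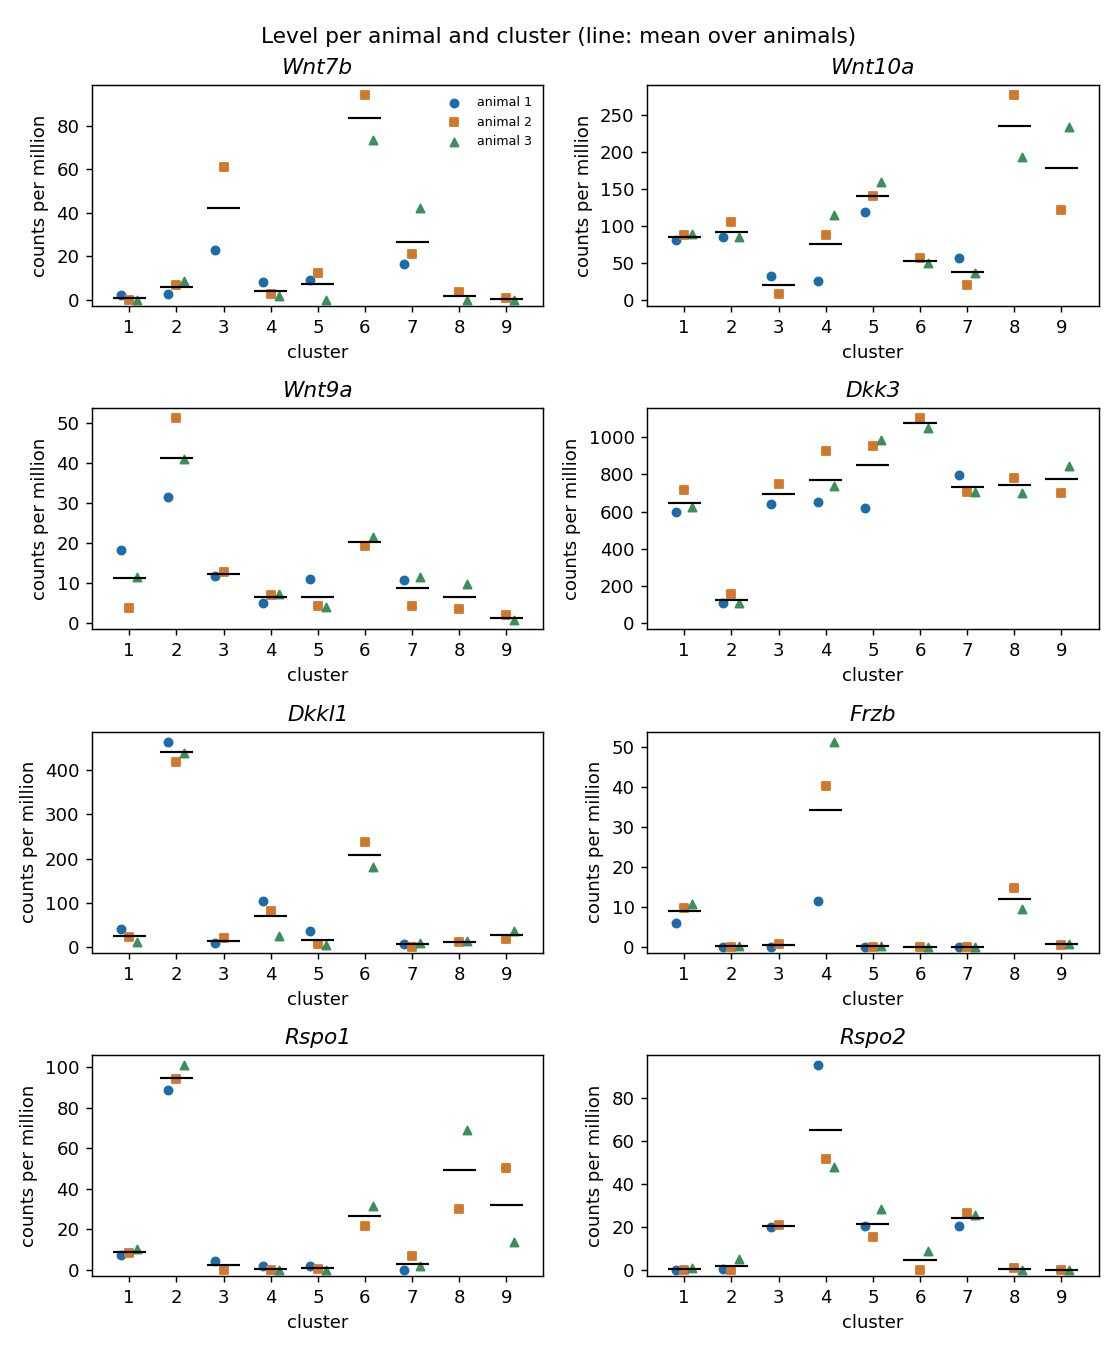
Level in CPM (vertical axes, linear, one per gene) of 8 called members in the 9 tested clusters; each point is the sum of 1 animal with at least 10 cells and each line the mean over animals. The 3 animals of cluster 2 lie at 108 to 159 CPM for Dkk3, under every other sum, and at 419 to 464 CPM for Dkkl1, above every other sum.

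Of the 3 R-spondins of the neuron table, Rspo1 and Rspo2 were highest in different clusters, while Rspo3 was spread over the clusters. Rspo1 stood at 88.8, 93.9 and 101 CPM in cluster 2, with counts in 82.8% of its cells. Outside it, cluster 8 had 30.1 and 68.9 CPM, cluster 9 had 50.1 and 14 CPM, and the layer 6 clusters 4 and 5 held 3 counts each. The 3 values of cluster 2 lay above all others. Rspo1 was higher in cluster 2 (adjusted p = 1.69e-05, higher in 3 of 3 animals), in cluster 8 (adjusted p = 0.00698) and in cluster 9 (adjusted p = 0.0461, above the linear mean of the others in 1 of 2 animals), and lower in cluster 4 (adjusted p = 0.0133) and cluster 5 (adjusted p = 0.0299). The call in cluster 2 was kept on leaving out each animal. Those in clusters 4 and 5 were lost without any 1 animal (adjusted p from 0.0633 to 1.0), that in cluster 8 without animal 3 (0.312) and that in cluster 9 without animal 2 (0.626) or animal 3 (0.151).

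Rspo2 was highest in cluster 4, where Rspo1 had 3 counts. It stood there at 95.04, 51.6 and 47.8 CPM, with counts in 55.4% of cells. In clusters 3, 5 and 7, the other clusters named by layer 5 or layer 6 markers, it ran from 15.5 to 28.5 CPM. In clusters 1, 2, 8 and 9 it was at 4.97 CPM or lower in each animal. Cluster 6 had 3 of 4 layer 5 intratelencephalic and 3 of 4 layer 5 extratelencephalic markers leading. Rspo2 stood there at 0 and 9.08 CPM in animals 2 and 3. Rspo2 was higher in cluster 4 (adjusted p = 7.97e-05), cluster 7 (adjusted p = 0.00543), cluster 5 (adjusted p = 0.0137) and cluster 3 (adjusted p = 0.025); it lay above the linear mean of the other clusters in 3 of 3, 2 of 3, 2 of 3 and 1 of 2 animals. The first was kept on leaving out each animal; without animal 1 the adjusted p was 0.0833 in cluster 7, 0.144 in cluster 5 and 0.318 in cluster 3, and without animal 2 it was 0.215 in cluster 3. Of the 169 cells with Rspo1 counts, 8 also held Rspo2 (4.73%), while 16.7% of all cells held Rspo2. With Rspo3 the share was 52.7% of Rspo1 cells and 57.0% of Rspo2 cells, against 53.5% of all cells. Of the 169 Rspo1 cells, 101 were in cluster 2, where 4.1% of cells held Rspo2. Whether these genes share cells more or less often within a cluster was not tested.

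Rspo3 was spread over the clusters, at 61.6 CPM ± 12.96 (SD, n = 3 animals). It was lower in cluster 6, at 34.8 and 7.84 CPM (log2 fold change -1.87 ± 0.38, adjusted p = 0.00837, lower in 2 of 2 animals), against cluster means of 33.1 to 95.5 CPM elsewhere. The call was lost without animal 2 (log2 fold change -2.85, adjusted p = 0.0531) or animal 3 (-1.20, adjusted p = 0.29), each from a lone sum.

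Lgr5, an R-spondin receptor known as a stem cell marker in the gut, had counts in 405 cells (52.9%), but the median count in those cells was 1, and 91.9% of them held 3 or fewer. Its level was 19.99, 6.04 and 5.17 CPM in animals 1 to 3, while its counts per cell were 1.41, 0.898 and 1.01. After each cell was thinned to 54512 counts, leaving out 77 shallower cells, the share fell to 27.8%. Rspo3, found in a like share of cells, had a median of 13 counts in them, and its share was 49.7% after thinning. Lgr4 was at 8.08 CPM ± 0.816 (SD, n = 3 animals), and neither receptor was called in any cluster.

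Axin1 and Axin2, scaffold proteins of the destruction complex, averaged 8.52 and 7.10 CPM. Axin2, itself a target of the pathway, was at 8.37, 6.30 and 6.62 CPM in the 3 animals, and its lowest adjusted p over the clusters was 0.642.

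In cluster 2 alone, 6 of 27 members were called, 5 higher (Rspo1, Dkkl1, Wnt9a, Wnt2 and Wnt6) and 1 lower (Dkk3), where 6.93% of all genes were called. Of these, Wnt6 had passed the filter on low counts through cluster 2 itself. The median log2 fold change there was 0.34 for members and 0.09 for all genes. Of the other pathway genes on the list, 56 were tested, of which 13 passed somewhere (9 higher and 6 lower, 2 of them in both directions). Wls, the carrier that brings Wnt proteins to the cell surface, was higher in cluster 2, at 121 CPM ± 24.8 (SD, n = 3 animals) against cluster means of 2.83 to 51.9 CPM (log2 fold change 2.87 ± 0.62, adjusted p = 0.0038). The co-repressor Tle4, a known layer 6 gene, was higher in cluster 5, at 127 CPM ± 18.2 (SD, n = 3 animals; 2.75 ± 0.38, adjusted p = 6.51e-05).

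The anterior, medium and posterior dissections were compared within clusters, with cluster and animal in the model. Of the 27 members 16 passed the filter, and 0 were called in either contrast with edgeR's quasi-likelihood test or with DESeq2. Of all 10067 genes, 0.00993% were called for posterior against anterior and 0% for medium against anterior. At an unadjusted p under 0.05 there were 2 members for medium against anterior, Dkkl1 and Dkk3, and 0 for posterior against anterior. Dkkl1 had a log2 fold change of -1.05 ± 0.46 (adjusted p = 0.798) and Dkk3 one of 0.21 ± 0.10 (adjusted p = 0.855). The median log2 fold change of the members was -0.05 against -0.03 for all genes in the medium contrast, and -0.23 against -0.02 in the posterior one. Over all neurons, Wnt7b stood at 16.9 ± 7.33 CPM in anterior, 8.52 ± 1.65 in medium and 32.7 ± 13.3 in posterior dissections (SD, n = 3 animals), and within clusters its posterior log2 fold change was 0.80 ± 0.83 (adjusted p = 1.0). Wnt10a had 85.0 ± 20.1, 98.2 ± 16.6 and 53.9 ± 16.2 CPM in the same order. It was lower in posterior than anterior dissections in 3 of 3 animals, without passing the test (-0.45 ± 0.26, adjusted p = 0.967). The 3 dissections held different mixes of clusters, and the 76 posterior cells of cluster 3 are among them. No difference between dissections was detected for any member.

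**Figure D3:**
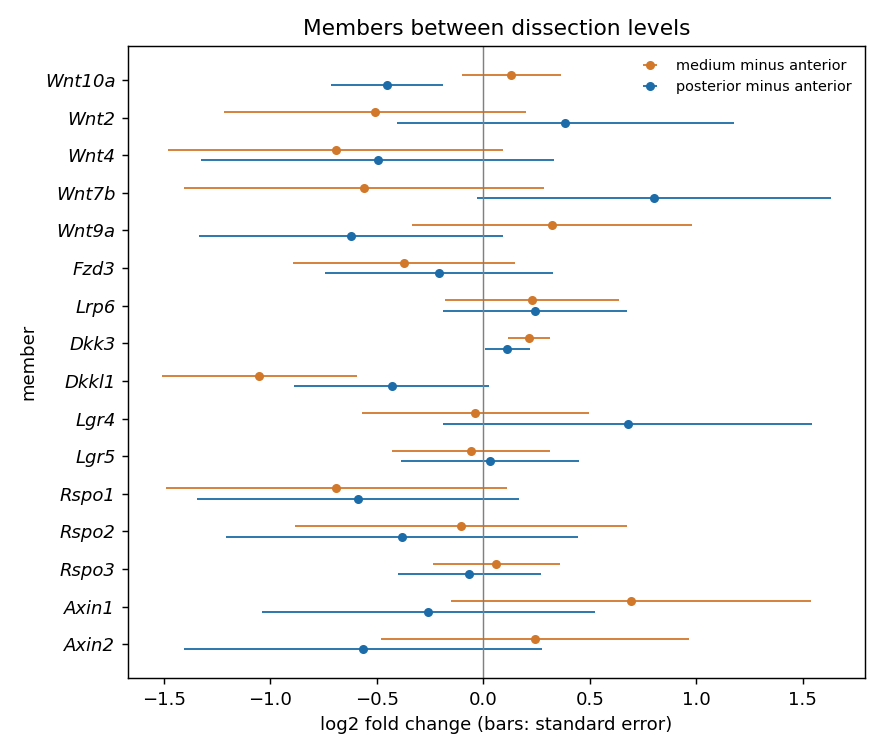
Log2 fold change of the 16 tested members (rows) for medium minus anterior and posterior minus anterior dissections, from the edgeR model with cluster and animal; bars are 1 standard error. No member was called in either contrast, and the points lie on both sides of 0.

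In the sections, Dkk3 stood at 208 and 193 CPM in S4 and S8. Fzd3 had 91.3 and 86.1 CPM and Dkkl1 35.8 and 29.7 CPM. Of the 25 members not in the neuron table, Fzd2 stood at 7.82 and 10.5 CPM. Spots mix cell types, so fewer cells of a type and less RNA per cell cannot be told apart in what follows. Of the 52 members, 18 passed the filter on low counts, and 11 of these were called in at least 1 zone, where 12.9% of all 10728 genes were called. With 2 sections as the only replicates, and 0 to 116 counts of a called gene in its zone, the spread rests on few counts. Spot positions were not used, so zones are described by their genes alone.

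Zone 7 was led by Rspo1, Rorb, Pamr1 and Whrn, Rorb being known from layer 4 of sensory cortex. There Rspo1 stood at 55.2 CPM in S4 and 37.6 CPM in S8, and in zone 2, led by Tshz2, Nrep and Hsd11b1, at 10.1 and 26.8 CPM. Zone 1 held 0 counts in either section. Rspo1 was higher in zone 7 (adjusted p = 2.74e-09) and in zone 2 (adjusted p = 0.000265) and lower in zone 1 (adjusted p = 0.00558). In zone 7 it lay above every other zone in both sections. Dkkl1 was higher in zones 7, 6 and 2, with 80.6 and 65.7 CPM in zone 7 (log2 fold change 1.62 ± 0.20, adjusted p = 2.37e-07), 62.3 and 36.9 CPM in zone 6 (1.05 ± 0.20, adjusted p = 0.00144) and 43.4 and 51.5 CPM in zone 2 (1.00 ± 0.20, adjusted p = 0.000385). It was lower in zone 4, led by Trh, Dlk1, Dcn and Calb2, at 5.87 and 3.48 CPM (-2.76 ± 0.36, adjusted p = 1.74e-07). Wnt9a was at 38.8 and 28.2 CPM in zone 7, above the other tested zones (at most 20.5 CPM; 1.39 ± 0.31, adjusted p = 0.0032).

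These 3 members, Rspo1, Dkkl1 and Wnt9a, were thus called higher in cluster 2 of the neurons and in zone 7 of the sections, the 5′ windows of which are printed above. Hsd11b1, a leading gene of cluster 2, was among the 10 leading genes of zone 2 and not of zone 7. Dkk3, low in cluster 2, stood in zones 2 and 7 at 330 and 306 CPM and at 145 and 162 CPM, with no call, and was lower in zone 4 instead, at 77.5 and 57.9 CPM (log2 fold change -1.63 ± 0.15, adjusted p = 1.91e-11).

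**Figure D4:**
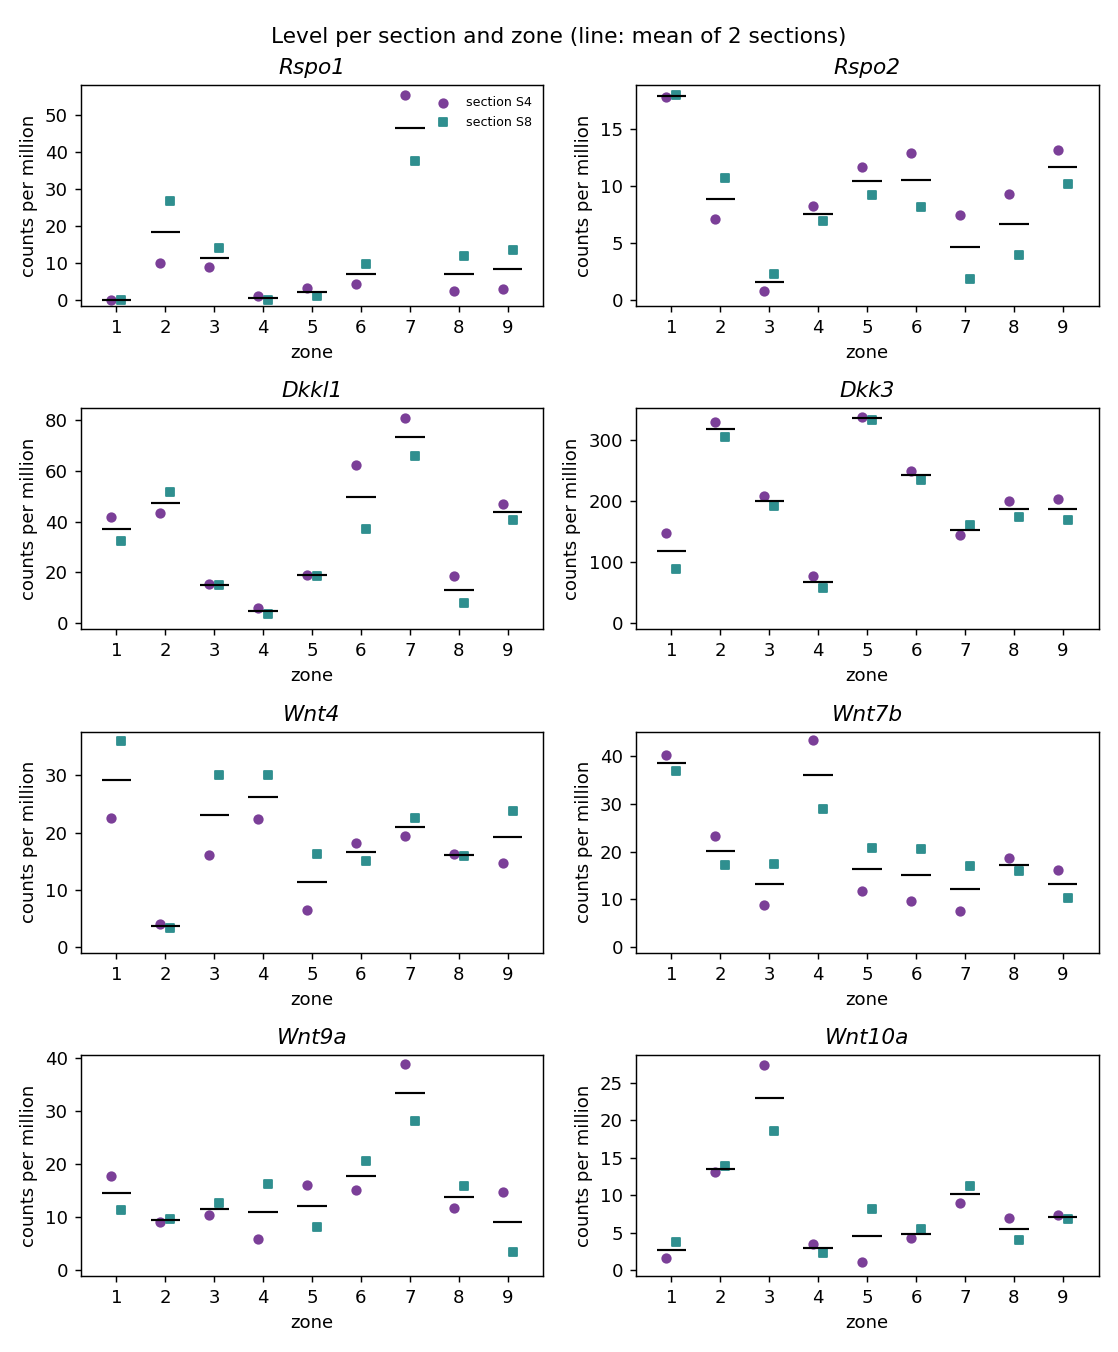
Level in CPM (vertical axes, linear, one per gene) of 8 called members in the 9 tested zones; each point is 1 section and each line the mean of both. Rspo1 lies at 55.2 and 37.6 CPM in zone 7 and at 0 in zone 1, and Dkk3 is lowest in zone 4.

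Zone 2 had 5 of the 18 tested members called, 3 higher and 2 lower, where 2.52% of all genes were called. Besides Rspo1 and Dkkl1, Wnt10a was higher there, at 13.1 and 13.9 CPM (log2 fold change 1.18 ± 0.39, adjusted p = 0.0428). Wnt4, a ligand known from kidney and ovary development, was lower, at 4.04 and 3.22 CPM against zone means of 11.3 to 29.3 CPM (-2.35 ± 0.42, adjusted p = 9.39e-05), and Frzb was lower at 4.04 and 4.29 CPM (-1.72 ± 0.45, adjusted p = 0.00925). All 5 oligodendrocyte markers and 3 of 5 erythroid markers were among those raised in zone 2. The oligodendrocyte markers summed there to 2804 and 3519 CPM, against 681 to 6349 CPM in the other zones, and none was at 0. The erythroid markers summed to 1247 and 1258 CPM, against 146 to 20590 CPM in the other zones. The part of this in the members' levels was not tested.

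Zone 3, led by Robo3, Cux2 and Evc2 with all 4 superficial layer markers, had higher Wnt10a, at 27.4 and 18.5 CPM (log2 fold change 2.02 ± 0.32, adjusted p = 2.23e-05), and higher Frzb, at 31.4 and 26.7 CPM (1.33 ± 0.26, adjusted p = 0.000541). Rspo2 was lower there, at 0.806 and 2.32 CPM (adjusted p = 0.00329). Zone 1, led by Kcng1, Nnat and Nr4a2, had higher Rspo2, at 17.8 and 18.01 CPM (adjusted p = 0.0033), and higher Wnt7b, at 40.3 and 37.0 CPM (1.24 ± 0.23, adjusted p = 0.000253). Zone 4 had higher Wnt7b, at 43.4 and 29.0 CPM (1.07 ± 0.26, adjusted p = 0.00279), and higher Wnt7a, at 11.7 and 17.4 CPM (1.17 ± 0.38, adjusted p = 0.032). The meningeal fibroblast marker Dcn was among the leading genes of zone 4. The 6 markers of that type summed there to 88.1 to 191.3 CPM, against 5.47 to 190.6 CPM in the other tested zones. Their part in the levels of members in zone 4 was not tested. Fzd1 was lower in zone 5, led by Foxp2, at 2.13 and 2.31 CPM (-2.06 ± 0.61, adjusted p = 0.0258), from 4 counts. All 5 oligodendrocyte markers were raised in zone 5, where they summed to 5018 and 6349 CPM, above every other tested zone (at most 3519 CPM), and their part in the levels there was not tested.

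Zones 8 and 9, led by astrocyte genes and by haemoglobin genes, had no member called. Fzd3 differed in zones 2 and 3 by less than the fold required: 51.5 and 51.5 CPM in zone 2 and 126 and 122.8 CPM in zone 3 (log2 fold changes -0.75 and 0.61, adjusted p = 0.00114 and 0.00129). Lrp6, Lgr4, Axin1, Axin2, Fzd2 and Rspo3 were not called in any zone. Of the other pathway genes, 54 were tested and 8 called; Tle4 was higher in zone 5, at 143 CPM ± 9.71 (SD, n = 2 sections; 1.88 ± 0.14, adjusted p = 1.03e-13), and Wls was lower there (-1.21 ± 0.24, adjusted p = 0.000433), the zone with the highest sum of oligodendrocyte markers.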

How the data were processed

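The values the authors deposited are raw counts of each gene in each cell or spot, judged from the values; no normalization is recorded. Per the submitters' processing notes, Seurat, Space Ranger and the builds NCBIM37 and mm10 were used, with no role given; the aligner, the counting and its use of strand, and whether neuron counts are reads or molecules are not given in the sources used here, so near-identical or overlapping genes are uncertain and intervals cover counting error only. The other tables deposited by the authors gave the animal of each cell and the section of each spot; 0 value columns were left unmapped, and spot totals matched for 1973 of 1973 spots.

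Members and lists were chosen with earlier results of these data known. Every member may be named; values per animal or section are given for called members and for the member of each role with the highest CPM, a choice that is not corrected for length. Clusters and zones were drawn with scanpy 1.11.5 (10000 counts per cell, log scale, 2000 variable genes, 30 components, 15 neighbours, Leiden resolution 1, seed 1) after leaving out members and pathway genes (84 names in neurons, 126 in spots); spots were centred within sections. Cluster names need every marker of a type that is in the table, and at least 3, to lead, and were set after the data were seen; doublets were not called. Counts were summed per animal and cluster (at least 10 cells), per animal, cluster and level (at least 5 cells) and per section and zone (at least 10 spots), filtered with filterByExpr, scaled by TMM and tested with edgeR 4.0.16 (R 4.3.3), with animal or section as a term. Samples of 1 animal were not treated as separate animals, and whether the 2 sections come from separate animals is not stated, so p-values for zones may measure technical spread. On simulated counts for cluster 2, 16.4%, 56.3% and 82.3% of genes changed by log2 1, 2 and 4 were recovered (13012 genes), for posterior against anterior 27.1%, 69.9% and 93.0% (9785 genes), and for zone 7 34.8%, 94.3% and 98.4% (10339 genes). In the same order, 9, 1 and 2 unchanged genes were called in these simulations. DESeq2 1.42.0, other filters, normalizations, sums and groupings were alternatives.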

Additional observations from a re-analysis of the deposited data

How the results depend on the processing

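Between clusters 12 members were called, and 8 to 14 under every alternative run, with 9 to 11 on leaving out 1 animal; with sums per sample it was 8 of 25 tested. Between dissections the count was 0 under every alternative, and between zones it was 11 at first and 8 to 12 otherwise, except without centring, where few zones held enough spots in both sections, 2 members passed the filter and 0 were called (with DESeq2, 8). All genes called moved by over 1.5 times from 2415 to 1163 with sums per sample, from 1386 to 256 without centring, and from 1 to 4 with DESeq2 or no filter, 14 over all neurons, 2 without animal 1 and 0 without animal 2 or with no animal term for dissections. Pathway genes called fell from 13 to 3 with sums per sample and to 7 without animal 2 or 3, and from 8 to 5 with DESeq2 or no section term, to 4 at resolution 0.5 and to 2 without centring. No called member changed sign in any alternative; of the single calls repeated in clusters 220 passed and 61 missed the threshold, as did 15 in zones. Each section alone kept the sign of all 20 zone calls, and moved 7 of the 20 values by over 1 SD in S4 and 7 in S8. Fzd1 in cluster 1 (adjusted p = 0.131), Frzb in zone 2 (0.0624), Rspo2 in zones 1 (0.0671) and 3 (0.0823), Wnt7a in zone 4 (0.179) and Fzd1 in zone 5 (0.165) were not called by DESeq2, which gave no adjusted p for Wnt6 in cluster 2 and Wnt10a in zone 2. At resolution 0.5, Dkkl1 in zones 6 (0.215) and 7 (0.105), Wnt9a in zone 7 (0.15), Rspo2 in zone 1 (0.0726) and Wnt7a in zone 4 (0.0655) were lost, as were Wnt10a in cluster 8 (0.0596) and Rspo2 in clusters 3 and 7 (0.0644, merged) and 5 (0.128). Thinning moved the share of cells beyond its interval for 11 of 27 members, and a mean over cells moved 4 levels by over 1 SD. No paired analysis was possible because the replicate numbers in the labels are shared only by neurons and sections, which no test compared; animals, taken from the deposited cell table, were a term in the neuron tests. Depth limits rare members: in zones a called gene had as few as 0 counts.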

Other observations

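Cluster 10 (24 cells, led by BC006965, Gpr115 and Ccdc80) entered no test, since 1 animal alone had at least 10 of its cells. In that animal Wnt7b stood at 87.6 CPM, Rspo2 at 61.3 CPM, Dkkl1 at 111 CPM and Dkk3 at 1179 CPM, while Rspo1 had 0 counts in the 24 cells, which allows a share of cells with a count of up to 12.5% and sets no limit on cells expressing it. Wnt7b counts were in 62.5% of the 24 cells and Rspo2 counts in 62.5%. Cluster 11 (11 cells, layer 6b-like by its markers) and cluster 12 (11 cells) also held no Rspo1, and 4 cells of each held Rspo2. Zone 10 (33 spots, section S4 alone, led by Arhgap6 and Slc29a4) had 41.4 CPM of Frzb, 36.5 CPM of Wnt7b, 21.9 CPM of Fzd1 and 0 counts of Rspo1, all without a second section to set beside them.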
